A study of Homo sapiens with 12 samples.

Results

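The comparison described here set H1 cells that overexpressed ZNF263 against wild type H1 cells, across all expressed genes. Its members were the 3 libraries titled as ZNF263 overexpression and the 3 titled as wild type, 6 of the 12 libraries of the study. Both groups are H1 (WA01), a long-established human embryonic stem cell line, with no other change named in the labels. The wild type libraries also hold the tag vec in their names. The other 6 libraries came from cells with a homozygous knockout of ZNF263, 3 of them without and 3 with overexpression of ZIC2, a zinc finger factor named as a cofactor in the study's design text. The stated purpose was to learn how ZNF263 acts in the regulation of pluripotency. Poly(A) RNA was sequenced and read counts per gene were deposited. The vector and promoter that drove ZNF263, the time since it was introduced, and whether replicates were separate cultures or clones are not given in the sources used here, so the p-values measure only the spread between these libraries, which may be technical.

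ZNF263 is a transcription factor with a SCAN domain, a KRAB domain and a row of C2H2 zinc fingers, and its known binding sites are rich in repeats of GGAGGA. Human embryonic stem cells are kept in the primed state of pluripotency by FGF and by NODAL or activin. NODAL is cut from its precursor by the convertases FURIN and PCSK6 and binds activin receptors together with the co-receptor TDGF1. The receptors phosphorylate SMAD2 and SMAD3, which enter the nucleus with SMAD4 and act with FOXH1 on target genes. Among these targets are NODAL itself and the secreted antagonists LEFTY1, LEFTY2 and CER1, which hold the signal back outside the cell. In later development the same signal drives mesoderm and endoderm.

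ZNF263 (chromosome 16, 3333487 to 3341459, hg19), the gene that was introduced, stood at 40.7, 38.8 and 38.2 CPM (counts per 1e+06 counts of the library) in wild type replicates 1, 2 and 3 and at 249, 251 and 219 CPM under overexpression. All values per library below follow that order, and CPM are scaled by TMM factors. The groups were far apart, with a 6.11-fold difference (log2 fold change 2.61, SE 0.06, edgeR adjusted p = 3.4e-19). Per kilobase of transcript, the mean level moved from 11.9 to 72.95 RPKM, so that ZNF263 passed from above 66.2% to above 94.2% of the tested genes. Among 30 genes for SCAN domain zinc finger proteins it moved from rank 7 to rank 2 by RPKM, behind ZSCAN10 with 98.5 RPKM under overexpression. None of the 29 other SCAN genes was called, with log2 fold changes of -0.16 to 0.25, and none of 9 tested neighbours of ZNF263 at 16p13.3. Gene counts do not tell the introduced transcript from the cell's own.

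Library totals were alike, at 17175183 to 20703664 counts in wild type and 17835252 to 21804410 under overexpression. Mitochondrial transcripts took 1.37 to 1.40% and 1.36 to 1.44% of the counts. Replicate pairs differed by a chi-square of 1.37 to 1.46 per gene, except the pairs of wild type replicate 1 with replicates 2 and 3, at 2.62 and 2.75. That library therefore stood somewhat apart. The 8 markers of embryonic stem cells summed to 7940 to 8040 CPM in wild type and 8110 to 8280 CPM under overexpression. Of these 8 only DNMT3B was called, with means of 2159 and 2422 CPM, so the higher sum is not read as a rise of the set. Markers of mesoderm, neuroectoderm, neural crest and trophoblast summed to at most 8.47 CPM in any library and overlapped between the groups. Blood markers summed to at most 0.333 CPM, with HBB at 0. On the first principal component of log2 CPM, which held 25.9% of the variance of the 6 libraries, the groups separated.

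Of 15437 tested genes, the quasi-likelihood test of edgeR called 118 at an adjusted p under 0.05, which is 0.764% of them. It called 49 genes higher (0.317%) and 69 lower (0.447%). ZNF263 was the 1 gene that rose more than 2-fold, and 5 genes fell more than 2-fold. Most changes were small. Of the 49 rises, 24 were under 1.25-fold and 19 lay between 1.25- and 1.5-fold, and of the 69 falls 32 and 22 lay in those ranges. Over the called genes the log2 fold change had a median size of 0.34, while over all tested genes the median log2 fold change was 0.0003 and the middle 50% ran from -0.07 to 0.07. The 3 values of each group did not overlap for any of the 118 called genes. The same was true of 19.4% of all tested genes.

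Fewer genes were called whichever single library was left out, which also left its group with fewer replicates. The cause was not tested. Leaving out wild type replicate 1, 2 or 3 gave 66, 61 or 56, and leaving out overexpression replicate 1, 2 or 3 gave 77, 50 or 50. Of the 118 calls, 36 held without any single library and 25 were lost whichever library was left out. Fold changes rose slightly with the GC content of the genes (Spearman correlation 0.258 across 14537 genes, which are not independent replicates), from a median of -0.04 where GC content was lowest to 0.05 where it was highest. Under an offset for GC content and gene length, an alternative chosen after the data were seen, edgeR called 245, with 116 of the 118 among them.

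**Figure D1:**
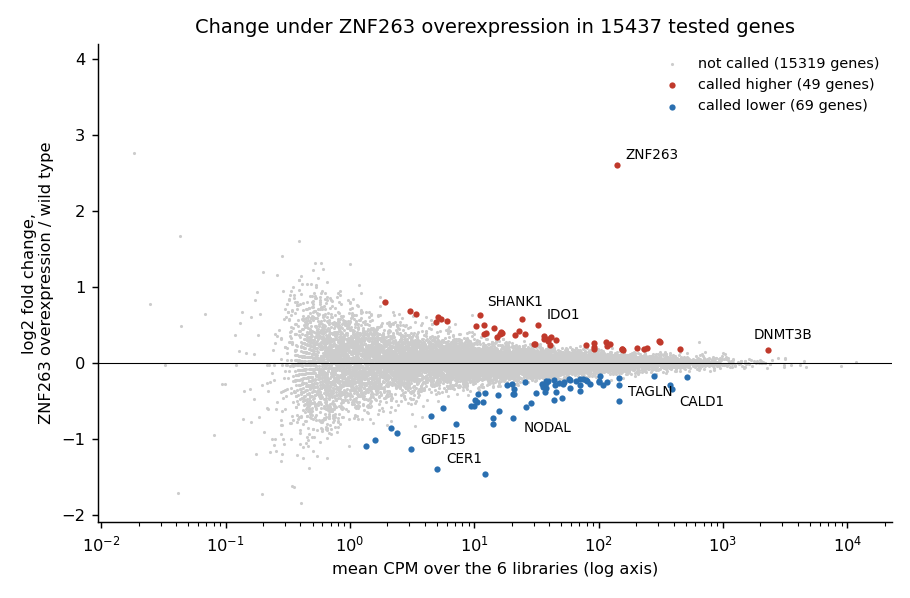
Each point is 1 of 15437 tested genes, with its mean CPM over the 6 libraries on a log axis and its log2 fold change between ZNF263 overexpression and wild type. The 49 genes called higher are red, the 69 called lower are blue, and ZNF263 at 2.61 stands apart from the other called genes.

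NODAL and its feedback antagonists were lower under ZNF263 overexpression, whereas its receptors and transducers were not called. NODAL (chromosome 10, 72191692 to 72207704, hg19), the ligand itself, stood at 25.2, 25.6 and 25.4 CPM in wild type and at 15.2, 15.9 and 15.1 CPM under overexpression. The libraries of each group were nearly equal and the groups did not overlap. The level was 39.5% lower (log2 fold change -0.72, SE 0.09, edgeR adjusted p = 7.0e-05). Of the other 3 tested ligands none was called. GDF3, a related ligand, stood at 12.8 ± 0.469 CPM (SD, n = 3) and 14.1 ± 0.776 CPM (SD, n = 3), and its log2 fold change was 0.14 (edgeR adjusted p = 0.658). The activin subunit genes INHBA and INHBE had log2 fold changes of -0.04 and -0.14.

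The 3 secreted antagonists that act on NODAL all fell. CER1 (chromosome 9, 14719732 to 14722715), which binds NODAL and other ligands outside the cell, stood at 6.76, 7.25 and 7.95 CPM in wild type and at 2.51, 2.72 and 3.09 CPM under overexpression. Every overexpression library was below every wild type library, and the level was 62.0% lower (log2 fold change -1.40, SE 0.14, edgeR adjusted p = 4.9e-06). LEFTY1 (chromosome 1, 226073982 to 226076846) stood at 20.3, 16 and 17.7 CPM in wild type and at 10.7, 10.9 and 9.39 CPM under overexpression. Its fall of 42.7% was larger than the spread within either group (log2 fold change -0.80, SE 0.11, edgeR adjusted p = 0.00011). LEFTY2 (chromosome 1, 226124298 to 226129192) stood at 12.2, 11 and 10.6 CPM and at 8.24, 6.54 and 7.81 CPM. The groups were separate here too (log2 fold change -0.57, SE 0.11, edgeR adjusted p = 0.010), but the call was lost when wild type replicate 1 or overexpression replicate 2 or 3 was left out, where the adjusted p reached 0.090. LEFTY1 and LEFTY2 are near-identical neighbours, so how uniquely aligned reads were split between them is uncertain. The activin antagonists FST and FSTL3 were not called, with log2 fold changes of 0.21 and -0.10.

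Inside the cell, 1 feedback gene fell and no transducer was called. PMEPA1, a membrane protein that sequesters SMAD2 and SMAD3, stood at 41.5, 41.8 and 40.4 CPM in wild type and at 34.1, 34.4 and 33.9 CPM under overexpression. The 3 overexpression values lay within 1 CPM of each other and below all wild type values (log2 fold change -0.27, SE 0.05, edgeR adjusted p = 0.0063), and without overexpression replicate 3 the adjusted p was 0.053. PMEPA1 shares exon sequence with the antisense gene NKILA, which held 306 counts over the 12 libraries against 12237. The other feedback genes SMAD7, SKIL and TGIF1 had log2 fold changes of -0.10 to -0.04. The 5 receptors ran from -0.19 for ACVR2A to -0.01 for ACVR1C, and the 5 transducers from -0.16 for SMAD3 to 0.17 for DRAP1, a corepressor that binds FOXH1. Among these uncalled genes the groups did not overlap for ACVR2A, ACVR2B, TGFBR1, SMAD2 and SMAD3, which were lower, and for DRAP1, which was higher. The groups did not overlap for 19.4% of all tested genes. The co-receptor TDGF1 stood at 677 ± 14.3 and 684 ± 5.49 CPM (SD, n = 3 each), and its log2 fold change was 0.02. The convertases FURIN and PCSK6 had 0.03 and 0.11. Over the whole pathway 26 of 29 listed genes were tested (not GDF1, INHBB and CFC1), 5 were called lower and 0 higher. Of all tested genes 0.447% were called lower and 0.317% higher. The median log2 fold change was -0.07, against 0.0003 over all genes, and 19 of the 26 lay below 0. Without overexpression replicate 3 the count of falls was 3. This list and those below were chosen with earlier results of these data known. Their shares of called genes are therefore descriptive, and enrichment was not tested.

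**Figure D2:**
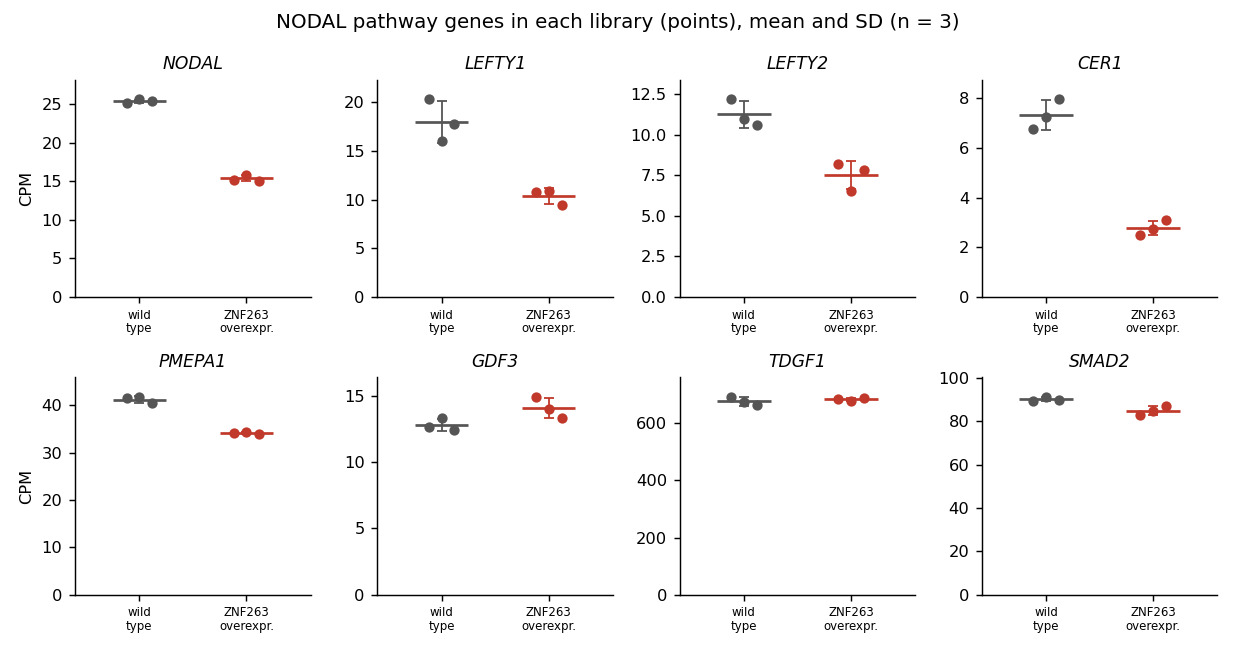
CPM of 8 NODAL pathway genes in each of the 6 libraries (points), with the group mean (line) and SD (bar, n = 3), on axes that start at 0. NODAL, LEFTY1, LEFTY2, CER1 and PMEPA1 are separated between the groups and lower under overexpression, while GDF3, TDGF1 and SMAD2 were not called.

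Genes that lie downstream of NODAL in mesoderm and endoderm were low in both groups. Of 9 genes of definitive endoderm 4 were tested, and CER1 was the 1 called. FOXA2 and PRDM1, factors of early endoderm, had log2 fold changes of -0.57 and -0.65 that were not called, and the chemokine receptor CXCR4 had -0.32 at 1.58 and 1.26 CPM. The 5 endoderm markers SOX17, FOXA2, GATA4, GATA6 and HHEX summed to 4.21 to 5.66 CPM in wild type and 2.99 to 4.13 CPM under overexpression, with SOX17 at 1 count in the 6 libraries. The part of a few differentiated cells in the falls of NODAL pathway genes was not tested, and in bulk RNA fewer cells of a type and less RNA per cell cannot be told apart. None of 6 tested primitive streak and mesoderm genes was called.

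The windows of 250 bases before the start of genes that changed are shown because ZNF263 sites are known for the repeat GGAGGA. The sequences are from RefSeq on GRCh38.p14, 5′ to 3′ on the strand of the gene, and end at the base before the start. Both strands were searched for GGAGGAGG, which stands in 8.98% of all 27305 promoter windows of the same table, for the FOXH1 motif AATCCACA (0.681%), the TEAD motif GGAATG (11.9%), the AP-1 motif TGANTCA (6.6%) and the CArG box bound by SRF (1.14%). Over the 11910 tested genes with a window, GGAGGAGG stood in 11.6% and GGAATG in 9.28%. Capitals mark the matches to any of the 5 motifs. The first 2 windows are from NODAL (chr10:70441682-70441931, minus strand) and CER1 (chr9:14722734-14722983, minus strand), the ligand and the antagonist with the largest fall.
NODAL: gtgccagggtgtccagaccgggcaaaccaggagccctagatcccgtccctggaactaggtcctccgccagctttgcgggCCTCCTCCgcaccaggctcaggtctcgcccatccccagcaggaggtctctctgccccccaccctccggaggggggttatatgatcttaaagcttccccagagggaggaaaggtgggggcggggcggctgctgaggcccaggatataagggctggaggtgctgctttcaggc
CER1: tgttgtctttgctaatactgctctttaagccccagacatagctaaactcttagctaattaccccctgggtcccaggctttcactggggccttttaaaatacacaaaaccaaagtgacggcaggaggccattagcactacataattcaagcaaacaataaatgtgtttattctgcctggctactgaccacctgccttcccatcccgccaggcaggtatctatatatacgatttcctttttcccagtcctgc
NODAL held 1 match to GGAGGAGG on the opposite strand, from 171 to 164 bases before the start, and the CER1 window held no match to any of the 5 motifs. The next 3 windows are from called genes with GGAGGAGG on their own strand. They are SAMD4A (chr14:54566878-54567127, plus strand), which encodes an RNA-binding repressor of translation, GDF15 (chr19:18385908-18386157, plus strand) and DNMT3B (chr20:32779602-32779851, plus strand).
SAMD4A: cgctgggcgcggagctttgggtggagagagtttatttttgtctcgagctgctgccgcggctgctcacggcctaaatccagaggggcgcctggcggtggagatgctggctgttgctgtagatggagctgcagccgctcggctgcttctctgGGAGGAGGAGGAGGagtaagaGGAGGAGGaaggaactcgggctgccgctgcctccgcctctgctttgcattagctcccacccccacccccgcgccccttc
GDF15: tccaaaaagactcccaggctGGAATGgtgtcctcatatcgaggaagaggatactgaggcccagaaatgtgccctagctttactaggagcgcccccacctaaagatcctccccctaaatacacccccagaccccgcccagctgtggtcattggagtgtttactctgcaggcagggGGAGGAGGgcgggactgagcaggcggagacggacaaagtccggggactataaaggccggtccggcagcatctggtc
DNMT3B: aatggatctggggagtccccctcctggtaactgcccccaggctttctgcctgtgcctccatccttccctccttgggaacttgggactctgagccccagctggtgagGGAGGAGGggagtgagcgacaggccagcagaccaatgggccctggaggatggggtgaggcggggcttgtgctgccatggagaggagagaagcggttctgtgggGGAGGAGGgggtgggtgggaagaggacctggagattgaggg
GDF15 held GGAGGAGG at 76 to 69 bases before the start and also the TEAD motif at 230 to 225 bases. SAMD4A held 4 matches between 100 and 72 bases before the start, 3 of them overlapping, and DNMT3B held 2, at 144 to 137 and 41 to 34 bases. SAMD4A stood at 11.4, 11.2 and 12.9 CPM in wild type and 6.76, 7.71 and 9.21 CPM under overexpression (log2 fold change -0.57, SE 0.11, edgeR adjusted p = 0.0064), a call lost without wild type replicate 3 or overexpression replicate 1 or 2 (up to 0.071). Of these genes with the match on their own strand, SAMD4A and GDF15 fell and DNMT3B rose. The last window is from CTGF (now CCN2, chr6:131951373-131951622, minus strand), a target of YAP and TEAD, and held 3 matches to the TEAD motif, the first at 169 to 164 bases.
CTGF: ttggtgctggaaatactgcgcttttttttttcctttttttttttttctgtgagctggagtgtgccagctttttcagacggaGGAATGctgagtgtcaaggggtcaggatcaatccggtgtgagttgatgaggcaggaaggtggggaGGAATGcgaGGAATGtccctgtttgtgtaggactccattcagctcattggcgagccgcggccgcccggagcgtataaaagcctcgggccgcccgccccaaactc
A match is a description of the letters and not a measured site. Motif shares were not compared between gene sets, since too few genes had a window: 11910 of the 15437 tested (77.2%) and 49 of the 69 called lower. The windows shown were chosen for their matches or their genes, and nothing is read from how many of them hold a motif.

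Among targets of p53, the factor that halts the cell cycle after DNA damage, 5 of 30 tested genes fell and 0 rose. Over all tested genes 0.447% were called lower and 0.317% higher. GDF15, a secreted stress cytokine, stood at 4.68, 3.73 and 4.38 CPM in wild type and at 1.75, 1.77 and 2.22 CPM under overexpression. All overexpression values were below all wild type values, on 113 and 243 counts in all, and the level was 54.6% lower (log2 fold change -1.14, SE 0.20, edgeR adjusted p = 0.0031). PLK2, a kinase induced by p53, stood at 16.2, 18.7 and 17.9 CPM and at 10.6, 10.3 and 11 CPM (log2 fold change -0.73, SE 0.08, edgeR adjusted p = 6.5e-06). BTG2, an antiproliferative cofactor, fell from 6.66 ± 0.280 to 4.44 ± 0.322 CPM (SD, n = 3 each; log2 fold change -0.59), and its call was lost on leaving out either of wild type replicates 2 and 3 or overexpression replicate 3 (edgeR adjusted p up to 0.12).

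CDKN1A, the p21 inhibitor of cyclin-dependent kinases, stood at 14.8, 11.1 and 11 CPM in wild type and at 8.51, 9.37 and 7.90 CPM under overexpression. Wild type replicate 1 was the high value, and without it, or without any single overexpression library, the call was lost (log2 fold change -0.51, edgeR adjusted p = 0.036, and up to 0.24). MDM2, the ubiquitin ligase that p53 induces against itself, fell from 94.0 ± 3.20 to 77.4 ± 3.00 CPM (SD, n = 3 each; log2 fold change -0.28, SE 0.05), with an edgeR adjusted p = 0.0027, and of 0.053 without overexpression replicate 3. The median log2 fold change of the 30 genes was -0.15, against 0.0003 over all tested genes, and 25 lay below 0. None of the 8 apoptosis genes or 4 genes of DNA repair and nucleotide supply was called. The members not called ran from -0.77 for the death receptor FAS to 0.09 for TP53I3. Without overexpression replicate 3 there were 2 falls, and with the correction for GC content and length 8.

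Of 10 tested targets of YAP, the coactivator that responds to cell spreading and tension, 4 were called lower, against 0.447% of all tested genes. This list too was chosen with earlier results of these data known, and enrichment was not tested. CYR61 (now CCN1), a secreted matrix protein, stood at 81.4, 79.6 and 78.8 CPM in wild type and at 59.7, 63.5 and 61.8 CPM under overexpression. The distance between the groups was many times the spread within them (log2 fold change -0.37, SE 0.05, edgeR adjusted p = 0.00011). CTGF, its relative, stood at 167, 156 and 162 CPM and at 135, 128 and 132 CPM (log2 fold change -0.29, SE 0.05, edgeR adjusted p = 0.0016). CAV1, the main protein of caveolae, stood at 20.7, 17.5 and 19.9 CPM and at 12.8, 12.9 and 11.6 CPM (log2 fold change -0.64, SE 0.09, edgeR adjusted p = 0.00038). These 3 stayed called when any single library was left out. AMOTL2, a scaffold that binds YAP, fell by 0.24 on the log2 scale, and lost its call without either of wild type replicates 1 and 3 or overexpression replicate 2 or 3 (edgeR adjusted p up to 0.16). The median of the list was -0.22, and the uncalled ANXA1 had -0.83 at 4.27 ± 0.891 and 2.41 ± 0.160 CPM (SD, n = 3 each; edgeR adjusted p = 0.062).

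Of 18 tested AP-1 subunits and immediate early genes, 3 fell and 0 rose, with a median log2 fold change of -0.20. Among all tested genes 0.447% were called lower, and the median was 0.0003. FOSL1, an AP-1 subunit, stood at 5.95, 4.91 and 5.72 CPM in wild type and at 2.67, 4.16 and 3.36 CPM under overexpression (log2 fold change -0.70, SE 0.15, edgeR adjusted p = 0.028). JUN, the partner of FOS proteins, fell from 23.3 ± 1.01 to 18.3 ± 1.26 CPM (SD, n = 3 each; log2 fold change -0.35). PHLDA1 fell from 61.9 ± 1.68 to 53.3 ± 1.23 CPM (SD, n = 3 each; log2 fold change -0.21). None of these calls was firm. JUN and PHLDA1 were lost when any single library was left out (edgeR adjusted p up to 0.175 and 0.195), and FOSL1 was lost without replicate 1 or 3 of either group (up to 0.172). FOS itself stood at 12.9 and 13.2 CPM, with a log2 fold change of 0.03.

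A group of genes for the actin cytoskeleton, cell adhesion and matrix, assembled after the values were seen, held 19 of the called genes, 13 of them lower. Of all 118 called genes 69 were lower, and the group was not tested for enrichment. TAGLN, which bundles actin in smooth muscle and spread cells, stood at 185, 157 and 169 CPM in wild type and at 113, 124 and 122 CPM under overexpression. The groups did not overlap (log2 fold change -0.51, SE 0.08, edgeR adjusted p = 0.00073). CALD1, which binds actin and myosin, stood at 437, 427 and 439 CPM and at 347, 328 and 346 CPM (log2 fold change -0.35, SE 0.04, edgeR adjusted p = 6.5e-06). ITGB5, an integrin chain, fell from 417 ± 9.45 to 339 ± 6.52 CPM (SD, n = 3 each; log2 fold change -0.30). The focal adhesion adaptor PXN fell by 0.29 on the log2 scale, and THBS1, a matrix glycoprotein, fell by 0.34.

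LPP and LIMA1, LIM domain proteins of adhesions and stress fibres, fell by 0.26 and 0.21 on the log2 scale, and RND3, a small GTPase that loosens stress fibres, fell by 0.30. These calls were lost for LPP without wild type replicate 3 or overexpression replicate 1 or 2, for LIMA1 without either of wild type replicates 1 and 2 or overexpression replicate 2 or 3, and for RND3 without overexpression replicate 3 (edgeR adjusted p up to 0.079, 0.12 and 0.059). The proteoglycan GPC6 fell by 0.49 and the metalloprotease ADAMTS1 by 0.31, the latter lost without wild type replicate 3 or overexpression replicate 2 or 3 (edgeR adjusted p up to 0.12). The other 6 genes of the group rose, matrix and adhesion genes among them. LAMB1, a laminin chain of basement membranes, rose from 104 ± 1.16 to 125 ± 3.53 CPM (SD, n = 3 each; log2 fold change 0.27), and the hyaluronan synthase HAS3 rose by 0.22, a call that held only without wild type replicate 3 (edgeR adjusted p otherwise up to 0.14). The cadherin CDH6 rose by 0.57, at 4.36 and 6.42 CPM, a call lost without any wild type library or overexpression replicate 2 or 3 (edgeR adjusted p up to 0.32). HAS3 overlaps exons of CHTF8 on the opposite strand, and PXN those of its antisense gene. Of the other cadherins, CDH1 had a log2 fold change of 0.02 and CDH2 of 0.02.

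The levels of fibroblast and feeder cell markers are given beside these falls. The 7 markers summed to 169 to 177 CPM in wild type and 162 to 167 CPM under overexpression, nearly all from COL1A1, COL1A2 and PDGFRB, with DCN at 0 in all 6 libraries and LUM at 1 count. COL1A1 and COL1A2 were not called (log2 fold changes -0.09 and -0.05), and of 6 tested genes in the fibroblast list TAGLN was the 1 called. The part of such cells in the falls of adhesion and YAP target genes was not tested.

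**Figure D3:**
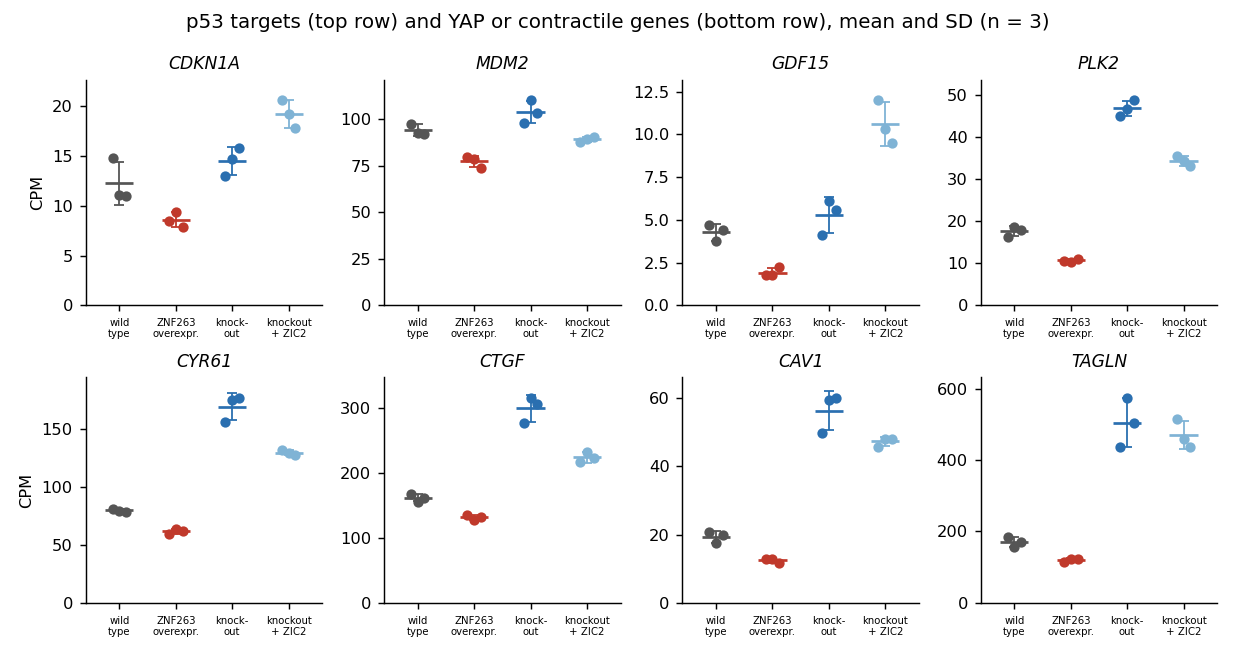
CPM of 4 p53 targets (top) and 4 YAP target or contractile genes (bottom) in each of the 12 libraries (points), with group mean (line) and SD (bar, n = 3), on axes that start at 0. In all 8 panels the 3 overexpression libraries lie below the 3 wild type libraries; the knockout libraries are given for their levels.

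Of 16 core pluripotency genes 1 was called, and not POU5F1, SOX2 or NANOG. POU5F1, whose deposited entry spans more than 1 contig and is uncertain, stood at 62.8 ± 3.26 and 64.6 ± 4.27 CPM, SOX2 at 380 ± 10.3 and 397 ± 7.67 CPM, and NANOG at 80.1 ± 2.40 and 75.9 ± 1.12 CPM (SD, n = 3 each). Their log2 fold changes were 0.04, 0.06 and -0.08, with edgeR adjusted p of 0.92, 0.56 and 0.67. The called gene was DNMT3B. This de novo DNA methyltransferase, which marks the primed state, stood at 2109, 2157 and 2211 CPM in wild type and at 2439.7, 2415 and 2411 CPM under overexpression. All overexpression values were higher, by 12.2% on average (log2 fold change 0.17, SE 0.04, edgeR adjusted p = 0.022), and the call was lost without any single library but wild type replicate 3 (up to 0.12). DNMT3A, DNMT1 and UHRF1 were not called, with log2 fold changes of 0.03, 0.05 and -0.05.

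Of 16 genes of primed and formative pluripotency, 2 rose, 0 fell and 14 lay above 0, with a median log2 fold change of 0.05. Among all tested genes 0.317% were called higher, and the median was 0.0003. CRABP2, which carries retinoic acid to the nucleus, stood at 20.4, 17.3 and 21.2 CPM in wild type and at 25.7, 26.4 and 26.7 CPM under overexpression (log2 fold change 0.42, SE 0.07, edgeR adjusted p = 0.0026). ZIC2 stood at 209 ± 3.74 and 212 ± 4.67 CPM (SD, n = 3 each), and its log2 fold change was 0.02 (edgeR adjusted p = 0.91). OTX2 had 0.15 and SALL2 had 0.11, both uncalled with groups that did not overlap. Of 9 tested naive pluripotency genes none was called, and their median was -0.09.

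The FGF and ERK list of 19 genes held 1 call. FGFR1, the main FGF receptor of these cells, rose from 421 ± 10.1 to 476 ± 5.28 CPM (SD, n = 3 each; log2 fold change 0.18, SE 0.04, edgeR adjusted p = 0.014), a call lost without any single library but wild type replicate 3 (up to 0.12). The ligand FGF2 stood at 190.4 and 172 CPM with a log2 fold change of -0.15 (edgeR adjusted p = 0.11), and the ERK phosphatase DUSP6 at 207 and 188 CPM with -0.14 (edgeR adjusted p = 0.089). Of 23 genes of the ATF4 and unfolded protein response, which answers amino acid shortage and stress in the endoplasmic reticulum, 21 lay below 0. Their median was -0.07, against 0.0003 over all tested genes. The cystine transporter SLC7A11 was the 1 called, falling from 84.6 ± 2.42 to 72.1 ± 1.99 CPM (SD, n = 3 each; log2 fold change -0.23, edgeR adjusted p = 0.010). Its call was lost without wild type replicate 1 or overexpression replicate 3 (up to 0.12).

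No member was called among 15 tested BMP pathway genes, 9 WNT targets and regulators, 9 NOTCH targets, 10 neuroectoderm genes, 4 neural crest genes, 19 ribosomal protein genes, 20 oxidative phosphorylation genes, 17 proliferation genes, 14 genes of glycolysis and hypoxia and 15 of cholesterol synthesis. Medians of these 10 lists ran from -0.04 for neural crest to 0.06 for neuroectoderm, and the smallest edgeR adjusted p of their members was 0.080. The KRAB corepressors, through which KRAB zinc finger proteins silence chromatin, had log2 fold changes of -0.10 to 0.04 (0 of 8 called). Of 4 tested trophoblast genes the keratin KRT7 was called, at 5.03, 5.07 and 4.62 CPM in wild type and 7.25, 6.98 and 7.31 CPM under overexpression (log2 fold change 0.55, SE 0.12, edgeR adjusted p = 0.029), and the call was lost without any single library (up to 0.15). The trophoblast markers summed to at most 2.16 CPM, with ELF5 at 0.

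**Figure D4:**
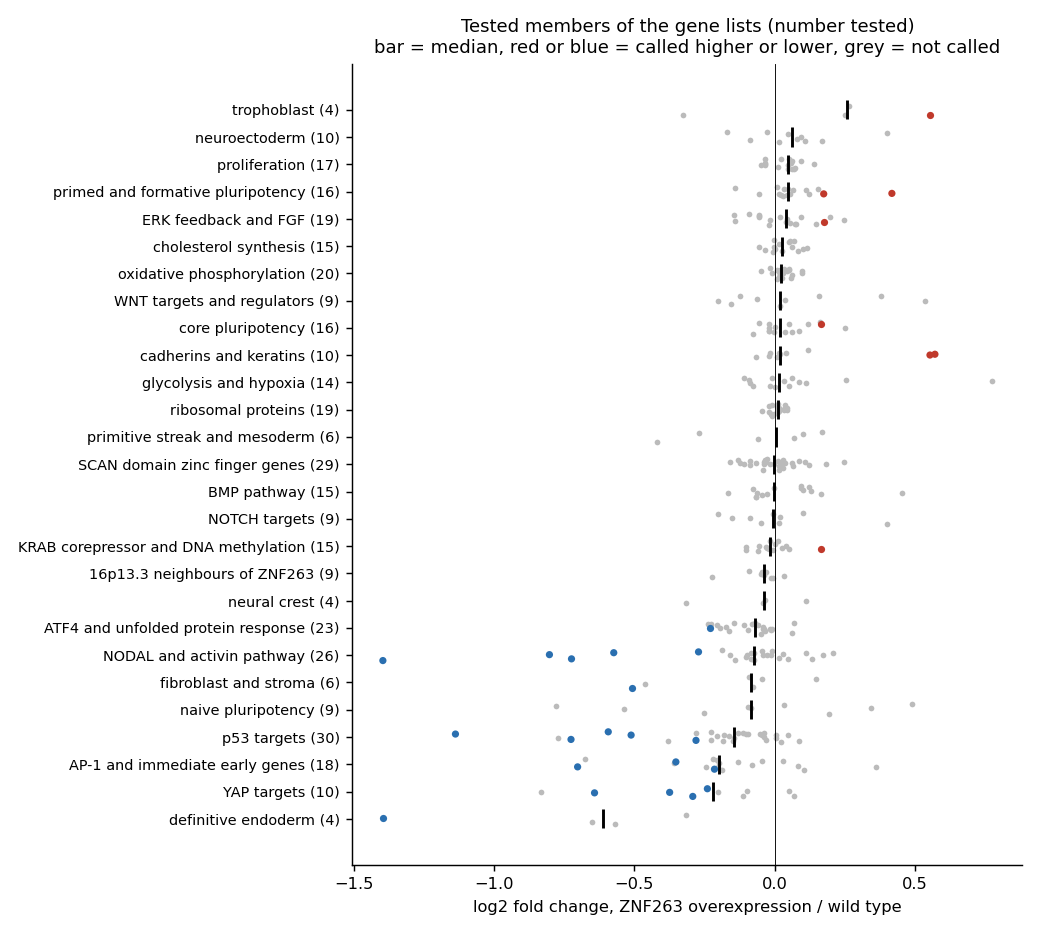
Log2 fold change between ZNF263 overexpression and wild type of each tested member of 27 gene lists, with the number tested in brackets and the median as a bar. The lists were chosen with earlier results of these data known. Called falls (blue) stand mainly in the NODAL, p53, AP-1 and YAP lists, whose medians lie between -0.07 and -0.22. Such medians are not particular to them. Definitive endoderm is at -0.61, naive pluripotency at -0.09, fibroblast and stroma at -0.08 and ATF4 at -0.07. Trophoblast is at 0.26, and most of the remaining lists centre near 0.

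Genes known from neurons and synapses made up 8 of the 49 rises and 4 of the 69 falls, in a group assembled after the values were seen and not tested for enrichment. SHANK1, a scaffold of excitatory synapses, stood at 8.03, 10.1 and 8.0 CPM in wild type and at 13.2, 13.6 and 13.6 CPM under overexpression. The groups were well apart (log2 fold change 0.63, SE 0.10, edgeR adjusted p = 0.00073). The gene shares 54 exon bases with C19orf81 on the opposite strand.

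The tubulin TUBB4A rose by 0.41 on the log2 scale, the adhesion protein LRRC4B by 0.50, the neuroligin NLGN3 by 0.31 and the microtubule-end protein MAPRE3 by 0.54. The call of MAPRE3 was lost whichever library was left out (edgeR adjusted p up to 0.32) and that of LRRC4B without either of wild type replicates 1 and 2 or overexpression replicate 2 or 3 (up to 0.22). TUBB4A was lost without wild type replicate 3 or overexpression replicate 2 (up to 0.071) and NLGN3 without wild type replicate 1 or 2 (up to 0.061). In the same group the neuropeptide NTS fell from 34.0 ± 1.47 to 23.6 ± 1.76 CPM (SD, n = 3 each; log2 fold change -0.53), and the glutamate transporter SLC1A1 fell by 0.49, lost without overexpression replicate 2 (edgeR adjusted p = 0.062). The 5 neuroectoderm markers, mostly DCX and PAX6, summed to 6.64 to 8.47 CPM in wild type and 7.58 to 7.98 CPM under overexpression.

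RHBDL3, a rhomboid-like membrane protein, showed the firmest rise after ZNF263. It stood at 17.7, 20.5 and 20.3 CPM in wild type and at 28.5, 28.4 and 30.2 CPM under overexpression (log2 fold change 0.57, SE 0.07, edgeR adjusted p = 4.7e-05). IDO1, an enzyme of tryptophan breakdown, stood at 28.3, 25.1 and 26.9 CPM and at 36.1, 38.0 and 39.4 CPM (log2 fold change 0.50, SE 0.06, edgeR adjusted p = 7.0e-05). Both calls held without any single library. The 3 largest rises after ZNF263 were of scarce transcripts. IGSF11, an adhesion protein, stood at 1.41 and 2.45 CPM (log2 fold change 0.80), TULP1 at 2.33 and 3.74 CPM (0.68) and the metalloprotease PAPPA at 2.64 and 4.12 CPM (0.64), and all 3 calls were lost without any single library (edgeR adjusted p up to 0.24, 0.22 and 0.15).

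A4GALT, a glycosyltransferase, rose by 0.60 and the adaptor SH2B2 by 0.49, and these calls were lost without any library but overexpression replicate 2 for A4GALT, and without replicate 2 or 3 of either group for SH2B2 (edgeR adjusted p up to 0.13 and 0.26). Among the further large falls, GNA14, a G protein subunit, stood at 8.26, 9.81 and 9.29 CPM in wild type and at 4.75, 5.16 and 5.67 CPM under overexpression. The groups did not overlap (log2 fold change -0.81, SE 0.12, edgeR adjusted p = 0.00032). RASGRF2, an exchange factor for RAS and RAC, stood at 29.8, 33.2 and 31.1 CPM and at 20.8, 20.5 and 21.3 CPM (log2 fold change -0.59, SE 0.08, edgeR adjusted p = 0.00011). The pseudogene FAM35DP fell by 1.02 on the log2 scale and the noncoding RNA MIR4435-2HG by 0.86. Both have near-identical copies elsewhere, so their counts are uncertain, and both were lost without either of wild type replicates 1 and 3 or overexpression replicate 2 or 3, FAM35DP also without wild type replicate 2 (edgeR adjusted p up to 0.21 and 0.22).

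The effect of ZNF263 in wild type cells was then set beside that of ZIC2 in knockout cells, a comparison of 3 against 3 libraries that shares none with the first. There 771 genes (4.99%) were higher and 517 (3.35%) lower with ZIC2. Of the 69 genes that fell under ZNF263 overexpression, 28 (40.6%) were also lower with ZIC2 and 4 (5.8%) were higher. The 28 genes make 5.42% of the 517 that were lower with ZIC2. Of the 49 genes that rose, 11 (22.4%, and 1.43% of the 771) were also higher with ZIC2 and 5 (10.2%) were lower. The falls in common held NODAL, LEFTY1, LEFTY2, CER1, PLK2, MDM2, CYR61, CTGF, CAV1 and CALD1.

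CER1 stood at 24.6, 25.7 and 25.2 CPM in knockout cells and at 14.9, 13.7 and 18.0 CPM with ZIC2. The log2 fold change was -0.69 with ZIC2 and -1.40 with ZNF263, and the difference of -0.70 passed the test (edgeR adjusted p = 0.015). NODAL fell by 0.35 with ZIC2 and 0.72 with ZNF263 on the log2 scale, and this difference did not pass (edgeR adjusted p = 0.069). LEFTY2 fell by 0.75 and 0.57, with an edgeR adjusted p = 0.61 for the difference. For CYR61 the log2 fold changes were -0.38 and -0.37, with a difference of 0.01 (edgeR adjusted p = 0.98). A difference that misses the threshold does not show that the effects are equal.

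A few targets of p53 and ATF4 moved in opposite directions under ZNF263 and ZIC2. GDF15 stood at 4.10, 6.11 and 5.6 CPM in knockout cells and at 12, 10.3 and 9.49 CPM with ZIC2. It rose by 1.08 on the log2 scale with ZIC2 and fell by 1.14 with ZNF263, and the difference of -2.21 passed the test (edgeR adjusted p = 2.5e-06). CDKN1A rose from 14.5 ± 1.43 to 19.2 ± 1.41 CPM (SD, n = 3 each) with ZIC2, a log2 fold change of 0.43 against -0.51 with ZNF263 (edgeR adjusted p = 0.00048 for the difference). SLC7A11 had 0.24 against -0.23. In all, 9 genes were called in opposite directions with a difference that itself passed, and SYNJ2, LITAF, TUBB4A, A4GALT and HSPA2 were also among them. The ZNF263 call of HSPA2 was lost without wild type replicate 2 (edgeR adjusted p = 0.062). Over all genes the difference was called for 560 (3.63%), and for 49 of the 118. These 49 were chosen through the ZNF263 effect that enters the difference, so nothing is read from that share. CRABP2 and the kinase PKDCC rose in both, by 0.84 and 0.99 with ZIC2 and by 0.42 and 0.24 with ZNF263, and both differences passed (edgeR adjusted p = 0.013 and 3.6e-07). The ZNF263 call of PKDCC was lost without any single library but wild type replicate 2 (up to 0.15).

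**Figure D5:**
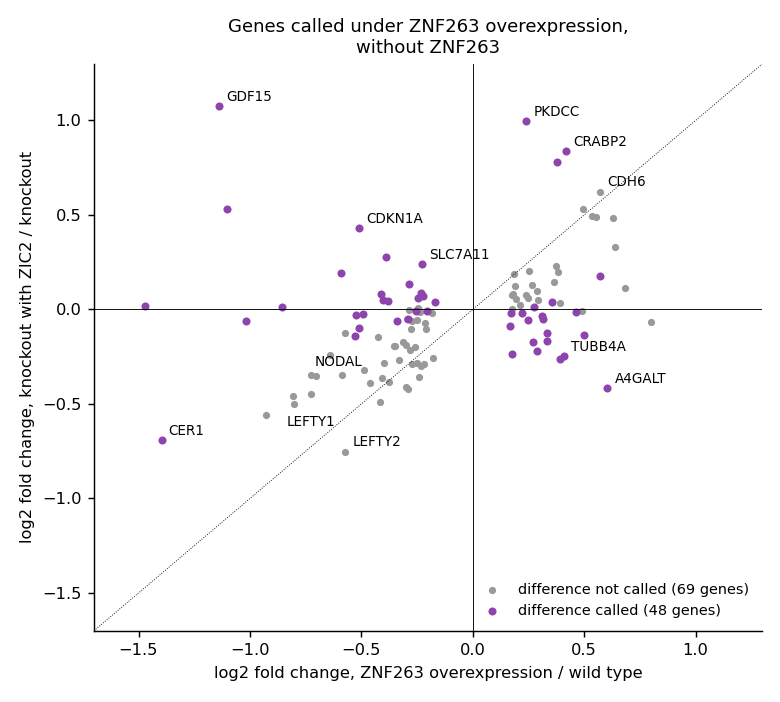
For 117 genes called under ZNF263 overexpression other than ZNF263, the log2 fold change with ZNF263 in wild type cells is on the x axis and that with ZIC2 in knockout cells on the y axis, with the line of equal change dotted. The 48 purple points are genes whose difference passed the test, among them GDF15 and CDKN1A in the upper left, while NODAL, LEFTY1 and LEFTY2 lie in the lower left in grey.

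Knockout cells gave a further level for the same genes. This comparison shares the wild type libraries with the first, so the values are given side by side and no overlap is drawn. NODAL stood at 25.4 CPM in wild type, 15.4 CPM under overexpression and 69.1 ± 8.52 CPM (SD, n = 3) in knockout cells. CER1 stood at 7.32, 2.77 and 25.1 CPM in the same order, and LEFTY1 at 18.0, 10.3 and 37.2 CPM. PLK2 stood at 17.6, 10.6 and 46.8 CPM, CYR61 at 79.9, 61.7 and 169 CPM and TAGLN at 171, 119.7 and 505 CPM. For these 6 genes the overexpression mean was the lowest and the knockout mean the highest of the 3. They were picked from the falls, and not every fall followed them. AK4, at 292.5, 259.9 and 197.6 CPM, and CMPK1, at 47.1, 40.3 and 37.5 CPM, also fell under overexpression but were lowest in knockout. The ZNF263 calls of AK4 and CMPK1 were lost whichever library was left out (edgeR adjusted p up to 0.24 and 0.25). GDF15, at 4.26, 1.91 and 5.27 CPM, and CDKN1A, at 12.3, 8.59 and 14.5 CPM, had log2 fold changes of 0.24 and 0.23 in knockout that were not called (edgeR adjusted p = 0.22 and 0.085). ZNF263 itself stood at 39.2, 239.6 and 31.1 CPM, so transcript counts of ZNF263 remain in the knockout libraries and do not by themselves check that label. Of genes that rose under overexpression, SHANK1 stood at 8.72, 13.5 and 5.29 CPM, lowest in knockout. DNMT3B at 2159, 2422 and 2385.5 CPM, A4GALT at 4.02, 6.15 and 5.53 CPM and TUBB4A at 14.2, 18.9 and 17.4 CPM were each lowest in wild type.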

How the data were processed

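Poly(A) RNA-seq of 12 H1 libraries, 3 per group, was analysed from the whole-number counts per gene that the authors deposited, with no normalization. Per the submitters' processing notes, STAR, featureCounts, DESeq2 and hg19 were used; versions and settings are not given in the sources used here. Uniquely aligned reads were counted, per the file headers, which lowers genes with near-identical copies. Of 27130 genes, 3461 had no count. The library kit named in the labels does not mark strand, so overlapping genes on opposite strands cannot be told apart.

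Genes passing filterByExpr of edgeR 4.0.16 in R 4.3.3 (15437) were scaled by TMM and tested by quasi-likelihood with the group as the only term across all 12 libraries (common biological coefficient of variation 0.0397, 8 residual degrees of freedom), with Benjamini-Hochberg adjustment over all tested genes and a threshold of 0.05. RPKM used the deposited gene lengths. The difference between the ZNF263 and ZIC2 effects is a contrast of the same fit. The fit was tested on simulated data. The genes and 27 lists (417 different genes, some in more than 1 list) were chosen with earlier results of these data known. Named genes are ZNF263, ZIC2, POU5F1, SOX2 and NANOG, the 15 largest called rises and falls whose replicates did not overlap (higher group at 1 CPM or more), and called list members with members of the same role; other called genes were named after their values were seen. Some genes taken by this rule are not reported here. Alternatives were RLE size factors, DESeq2 1.42.0, other filters and thresholds, a replicate block, the 6 libraries alone, each library left out, and, chosen after seeing the data, a GC and length correction. Promoter windows are RefSeq sequences on GRCh38.p14; coordinates of genes are hg19.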

Additional observations from a re-analysis of the deposited data

How the results depend on the processing

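The 118 genes called under ZNF263 overexpression became 118 with RLE size factors, 109 with DESeq2 (103 shared), 120 with a mean of at least 1 CPM as the filter, 220 with no filter, 207 at an adjusted p under 0.1, 245 after the GC and length correction, and 431 when the 6 libraries were fitted alone (210 higher, 221 lower, all 118 among them). Leaving out single libraries gave 50 to 77 calls. The cause of these shifts was not tested. The difference from the ZIC2 effect, 560 genes, ran from 363 (without overexpression replicate 3) to 768 over single libraries left out, and was 916 after the GC and length correction. Same-numbered libraries showed no shared deviation (correlations of -0.02, -0.02 and 0.02). This check cannot tell whether they were handled together. With a replicate block 108 genes were called, 104 of them shared, and 512 for the difference. Of 43 called genes that the naming rule took, 18 stayed called in every alternative run and 0 changed sign. Genes of a few CPM limit what this depth can show.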

Other observations

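Several solute carriers and signalling genes outside the lists were also called, chosen here after their values were seen. The amino acid transporter SLC7A8 rose from 276 ± 11.6 to 336 ± 4.69 CPM (SD, n = 3 each; log2 fold change 0.29), while SLC6A15 fell by 0.28 and the mitochondrial carrier SLC25A24 by 0.23 on the log2 scale. The call of SLC25A24 was lost whichever library was left out and that of SLC6A15 without any but overexpression replicate 1 (edgeR adjusted p up to 0.12 and 0.22). The tyrosine kinase LCK, best known from T cells, stood at 55.3, 50.4 and 49.7 CPM in wild type and at 39.9, 38.8 and 40.5 CPM under overexpression (log2 fold change -0.38, SE 0.05, edgeR adjusted p = 0.00016). The receptor tyrosine kinase RET rose from 10.7 ± 0.958 to 14.1 ± 0.409 CPM (SD, n = 3 each; log2 fold change 0.39), the chemokine CXCL12 rose by 0.27, and the WNT receptor FZD5 fell by 0.24. Alkaline phosphatase (ALPL), an enzyme marker of pluripotent cells, rose from 228 ± 1.39 to 261 ± 5.77 CPM (SD, n = 3 each; log2 fold change 0.19). RET was lost without any library but wild type replicate 3, and FZD5 and ALPL without replicate 2 or 3 of either group (edgeR adjusted p up to 0.15, 0.16 and 0.12).

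TMEM63A, an ion channel gene close to LEFTY1 on chromosome 1 (226033233 to 226070420, hg19), stood at 57.5, 60.1 and 59.4 CPM in wild type and at 43.0, 43.7 and 42.0 CPM under overexpression (log2 fold change -0.46, SE 0.05, edgeR adjusted p = 2.1e-05). With ZIC2 in knockout cells it fell by 0.39 on the log2 scale, and the effects differed by -0.07 (edgeR adjusted p = 0.68). It shares 30 exon bases with EPHX1 on the opposite strand.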
